A study of Bubalus bubalis with 12 samples.

Results

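Sperm chromatin of 3 subfertile water buffalo (Bubalus bubalis) bulls, labelled SF1, SF4 and SF5, was compared here between a pair of histone marks measured in the same animal. The comparison used the 6 arrays whose titles carry SF, out of 12 arrays in the series: 3 arrays of histone H3 dimethylated at lysine 4 (H3K4me2) and 3 of histone H3 trimethylated at lysine 27 (H3K27me3), paired by the bull's number. The other 6 arrays came from 3 bulls labelled high fertile (HF2, HF3 and HF5) and served only as a comparison. All samples were cryopreserved semen. The labels name no treatment, breed or age, and they do not say how subfertility was assessed. There is 1 array per bull and mark, so the 3 bulls are the replicates. Chromatin was sheared with micrococcal nuclease and precipitated with an antibody to either mark. The recovered DNA and the bull's input DNA went through 2 rounds of linker-mediated PCR, after which the recovered DNA was labelled with Cy5 and the input with Cy3. No array had the dyes swapped, so any dye effect has the same sign on both arrays of a bull.

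In somatic cells H3K4me2 lies at promoters and enhancers of active or poised genes, whereas H3K27me3 is written by Polycomb complexes at silenced developmental genes. In mammalian sperm most histones are replaced by protamines, and the remaining nucleosomes, which are enriched at CpG islands and developmental gene promoters in the species studied most, can carry either mark or both. Each array was centred on its own median. A difference between the marks at a locus therefore describes on which mark's array that DNA stood higher relative to the median probe. It does not describe which antibody recovered more of that DNA, or how much histone is present.

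The array held 177440 probes of 60 bases that were not controls, of which 160708 were annotated to CpG islands, 13422 to promoters and 3310 to coding sequence. They were designed on cattle sequence, and positions below are those of HGSC Btau_3.1 given in the scanner files. Every level is the log2 ratio of ChIP signal (Cy5) to input signal (Cy3), both as processed by the scanner software, centred on the array's median, so a value of 0 is the level of the median probe and not absence of the mark. A gene's level is the mean of its probes, at least 2, which gave 6805 genes. The mark difference is the H3K4me2 level minus the H3K27me3 level in one bull: positive where H3K4me2 was higher, negative where H3K27me3 was higher. Across the 6 arrays, 99.36% to 99.94% of probes had input signal well above background and 95.69% to 99.98% had such a ChIP signal, and 166 to 558 ChIP spots were saturated. Arrays give no read depth, so precision rests on the number of bulls: the 95% confidence interval of the mean mark difference had a half-width of 0.81 log2 units in the median gene.

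The sequences below are probes of the genes on which the results turn. SCD5 and FXYD6 had the smallest p with H3K4me2 higher, WDR11 and OXSR1 the smallest p with H3K27me3 higher, COX5A the largest mean difference among the 24 genes of smallest p with all 3 bulls, and ACTR6 a difference of exceptional size in 1 bull. In each gene the probe with the median difference is shown, 5′ to 3′ as the scanner files print it, with CpG dinucleotides in capitals; the files do not state the strand.
SCD5: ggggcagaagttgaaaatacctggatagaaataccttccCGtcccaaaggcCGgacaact
FXYD6: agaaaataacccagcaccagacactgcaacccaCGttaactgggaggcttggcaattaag
COX5A: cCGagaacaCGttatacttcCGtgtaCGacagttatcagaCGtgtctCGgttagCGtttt
WDR11: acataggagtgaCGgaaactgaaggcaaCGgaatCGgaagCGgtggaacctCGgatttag
OXSR1: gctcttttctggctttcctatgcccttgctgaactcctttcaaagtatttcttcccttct
ACTR6: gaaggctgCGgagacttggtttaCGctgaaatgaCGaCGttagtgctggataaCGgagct

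All 6 probes are annotated to CpG islands. They lie at chr6:101413078-101413137 (SCD5), chr15:26966171-26966230 (FXYD6), chr21:33835890-33835949 (COX5A), chr26:41345250-41345309 (WDR11), chr22:11754088-11754147 (OXSR1) and chr5:69094862-69094921 (ACTR6). They hold 2 (SCD5), 1 (FXYD6), 7 (COX5A), 5 (WDR11), 0 (OXSR1) and 5 (ACTR6) CpGs. The median of the 160659 CpG island probes kept was 3, and 6865 of those probes held none.

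The fluorescence behind the differences can be read at these probes. At the WDR11 probe the ChIP signal of the H3K4me2 array was 548, 229 and 475 in bulls SF1, SF4 and SF5, and that of the H3K27me3 array was 1530, 1580 and 1260. The input signals differed less between the arrays of a bull: 1070 and 1050 in SF1, 296 and 288 in SF4, and 1710 and 1400 in SF5. At the SCD5 probe the order of the marks was the opposite: ChIP signals of 200, 381 and 325 for H3K4me2 against 126, 80 and 147 for H3K27me3. The input signals there were 132 and 180 in SF1, 292 and 287 in SF4, and 253 and 256 in SF5. At the OXSR1 probe, which has no CpG, the ChIP signals were 270, 253 and 361 for H3K4me2 and 680, 572 and 1480 for H3K27me3. In all 3 genes the arrays of one mark lay on the same side of the arrays of the other mark within every bull. The genes were picked for one sign in all 3 bulls, so this is no further support.

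The first question was whether the difference between the marks exceeds what a pair of hybridisations of one DNA gives. Each bull's input was hybridised on both of its arrays, so the Cy3 channel measures that directly. The standard deviation (SD) over genes of the input difference between the arrays was 0.09 log2 units in SF1, 0.12 in SF4 and 0.12 in SF5. The SD of the mark difference was 0.33 in SF1, 0.70 in SF4 and 1.14 in SF5. With the Cy5 signals alone, and no input taken into account, the SDs were 0.35, 0.73 and 1.19. These Cy5 values are 3.7, 6.2 and 10.3 times the input's. In every subfertile bull the immunoprecipitated DNA of the marks therefore differed more than the repeated input did. The repeated input covers labelling and hybridisation only. With 1 immunoprecipitation per bull and mark, a difference between the marks and one between separate precipitations and amplifications cannot be told apart. SF5 had the widest spread and SF1 the narrowest, in the ratio and in the Cy5 signal. The 3 high-fertile bulls lay within that range, with SDs of 0.45 in HF2, 0.58 in HF3 and 0.96 in HF5.

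**Figure D1:**
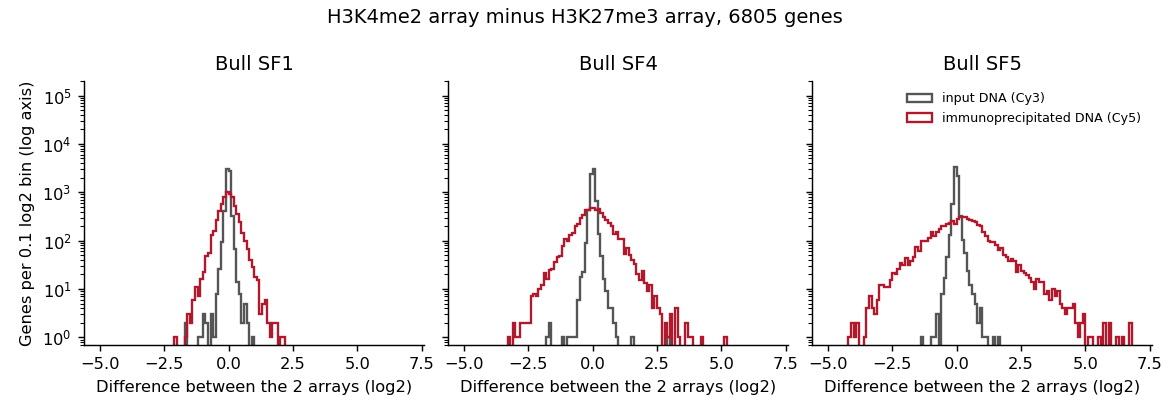
Number of genes (vertical, log axis, per bin of 0.1 log2 units) by the difference between the H3K4me2 and the H3K27me3 array of one bull (horizontal, log2), for input DNA (grey) and immunoprecipitated DNA (red) in SF1, SF4 and SF5. The grey curves are of like width in the 3 bulls, with SDs of 0.09 to 0.12, and the red curves widen from 0.35 in SF1 to 0.73 in SF4 and 1.19 in SF5.

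Genes over a 2-fold difference show the same order of the bulls. H3K4me2 was higher by over 1 log2 unit at 41 genes in SF1, 529 in SF4 and 1215 in SF5, which is 0.602%, 7.77% and 17.9% of the 6805 genes. H3K27me3 was higher by that much at 33 genes in SF1, 399 in SF4 and 928 in SF5, or 0.485%, 5.86% and 13.6%. Between the input channels of a bull, 0.06% to 0.09% of genes passed the same fold. The levels of the marks correlated across genes at r = 0.86 in SF1, 0.40 in SF4 and 0.25 in SF5, where both levels of a bull share its input signal. Without the input, the Cy5 signals correlated at 0.94, 0.80 and 0.64, a correlation that includes the brightness a probe has on every array.

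SF5 stood apart in further values. Its H3K4me2 array had the lowest median ChIP signal, 286 units over the local background against 460 on its H3K27me3 array and 931 to 1277 on the other 4. On that array, probes with at least 32 G or C among their 60 bases lay 1.17 log2 units above probes with at most 27, against 0.25 on SF5's H3K27me3 array and -0.07 to 0.12 on the other 4. The mark difference of SF5 had a median of -0.23 at the probes poor in G and C and of 0.40 at those rich in them, while SF1 and SF4 stayed between -0.02 and 0.02 in both classes. The part of base composition and signal strength in SF5's larger differences was not tested, and results are given for each bull throughout.

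The mark difference was alike at probes close to each other. For pairs of probes whose starts lie under 60 bases apart, and which thus overlap, the difference correlated at r = 0.74 in SF1, 0.76 in SF4 and 0.73 in SF5. For pairs from 60 to under 120 bases apart, which do not overlap, r was 0.51, 0.47 and 0.41, and for pairs from 120 to under 250 bases 0.25, 0.22 and 0.20. From 250 to under 500 bases r was 0.04, 0.01 and 0.04. The input difference at the same probe pairs correlated at 0.12, 0.19 and 0.38 for overlapping probes and at 0.04, 0.06 and 0.07 from 60 bases to under 120. The values describe 799944 to 802353 overlapping pairs and 236327 to 237159 pairs of the next distance class in each bull, in which 1 probe enters many pairs. Within a bull, neighbouring probes thus had like differences up to about 250 bases apart, and the 3 bulls were close to each other in this decay while their differences varied in size.

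**Figure D2:**
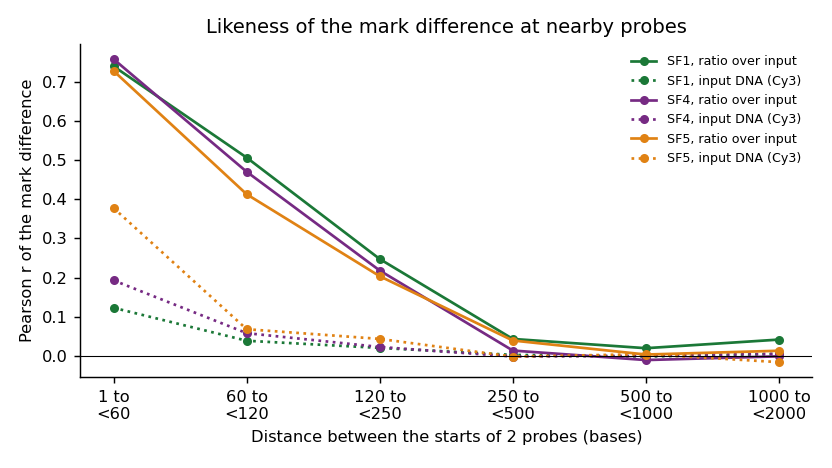
Pearson correlation of the mark difference at pairs of probes (vertical) by the distance between their starts in bases (horizontal, 6 classes), for the ratio over input (solid) and for input DNA (dotted) in each subfertile bull. The solid lines fall from 0.73 to 0.76 for overlapping probes to at most 0.04 at 250 to under 500 bases, and the dotted lines start at 0.12 to 0.38.

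The second question was whether the same genes carried the difference in the 3 bulls. Across the 6805 genes the mark difference of SF1 correlated with that of SF4 at r = 0.02, that of SF1 with SF5 at 0.02 and that of SF4 with SF5 at -0.05. In the Cy5 signals alone these values were 0.02, 0.01 and -0.04. The 12 pairs of a subfertile bull with a high-fertile one, or of 2 high-fertile bulls, gave -0.09 to 0.05. A single mark was no more alike between bulls: the H3K4me2 levels correlated at -0.06 to 0.00 between the subfertile bulls and the H3K27me3 levels at -0.02 to 0.03. In these arrays the level of a mark over input thus resembled the other mark of the same bull more than the same mark of another bull, in each of the 3 bulls, with the input signal shared within a bull. In the Cy5 signals alone that order held in SF1 only. The marks of a bull then correlated at 0.937 in SF1, 0.797 in SF4 and 0.635 in SF5. Between bulls H3K4me2 correlated at 0.688 to 0.882 and H3K27me3 at 0.707 to 0.835. These Cy5 values include the brightness a probe has on every array. These are descriptions across genes, which are not independent replicates.

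**Figure D3:**
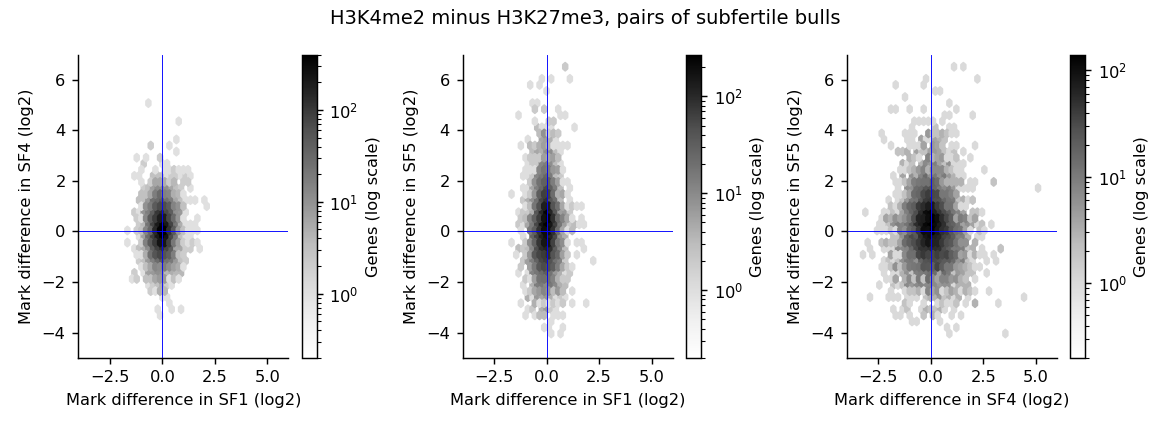
Mark difference (H3K4me2 minus H3K27me3, log2) of each gene in one subfertile bull (horizontal) against another (vertical), with the number of genes per hexagon as grey level on a log scale. The 3 clouds have no tilt (r = 0.02, 0.02 and -0.05) and are taller for SF5 than for SF4.

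The overlap of genes over 2-fold varied with the pair of bulls and the direction. Of SF4's 529 genes with H3K4me2 higher, 81 (15.3%) passed the same fold in SF5, where 17.9% of all genes did, and these are 6.67% of SF5's 1215. In the opposite direction in SF5 were 137 of the 529 (25.9%), against 13.6% of all genes. Of SF4's 399 genes with H3K27me3 higher, 102 (25.6%) passed in SF5 against 13.6% of all genes, and 69 (17.3%) in the opposite direction against 17.9%. Of the 41 genes of SF1 with H3K4me2 higher, 13 (31.7%) were over 2-fold in SF4 too, against 7.77% of all genes. These are 2.46% of SF4's 529. In the opposite direction in SF4 were 4 of the 41 (9.76%), against 5.86% of all genes. In SF5 7 of the 41 (17.1%) passed, against 17.9% of all genes, and 9 (22%) passed in the opposite direction, against 13.6%. Of SF1's 33 genes with H3K27me3 higher, 8 (24.2%) passed in SF4, against 5.86% of all genes, and 7 (21.2%) in the opposite direction, against 7.77%. In SF5 8 of the 33 (24.2%) passed, against 13.6%, and 7 (21.2%) in the opposite direction, against 17.9%. H3K4me2 was higher in all 3 bulls at 991 genes (14.6%) and H3K27me3 at 727 genes (10.7%). After loess normalization within each array these counts were 849 (12.5%) and 856 (12.6%), so the larger share for H3K4me2 was not kept. Between the input channels, where no antibody differs, the same counts were 709 (10.4%) and 904 (13.3%). Over 1 log2 unit in all 3 bulls were 3 genes in each direction.

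No gene passed limma's paired test of the mark difference at a Benjamini-Hochberg adjusted p of 0.05 (0 of 6805, percent called 0; lowest adjusted p 0.927). At an unadjusted p under 0.05 there were 186 genes (2.73%), 83 with H3K4me2 higher and 103 with H3K27me3 higher. The Cy5 signals alone gave 0 of 6805 genes and 181 (2.66%) at the unadjusted threshold, and the input channel, where no mark differs, gave 0 and 260 (3.82%). Of 176752 single probes with a value on all 6 arrays 0 passed, and 4719 (2.67%) did so unadjusted. The genes below are those of smallest p with one sign in all 3 bulls, in the ratio over input and in the Cy5 signal. They are descriptions of these 3 bulls, since none passed the test.

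Among genes with H3K4me2 higher, the steadiest in its 3 values was POLD3, a subunit of DNA polymerase delta, with mark differences of 0.96 in SF1, 0.94 in SF4 and 0.83 in SF5. Its 3 probes span under 100 bases, and in SF5 2 of them had a ChIP signal well above background on each of its arrays. SCD5, a stearoyl-CoA desaturase of fatty acid synthesis, had H3K4me2 levels of 0.72, 0.32 and 0.74 and H3K27me3 levels of -0.31, -1.62 and -1.16 in SF1, SF4 and SF5. In SF1 its Cy5 signals alone differed by 0.69 and the input signals by -0.35. Its 6 values did not overlap between the marks, and the mean difference was 1.62 ± 0.51 (SD, n = 3; limma adjusted p = 0.927). The value is that of 3 overlapping probes at chr6:101413078-101413145.

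FXYD6, which encodes a modulator of the sodium-potassium pump, was covered by 17 probes over chr15:26966043-26967277. Its H3K4me2 levels were 0.47, 0.82 and 1.31 and its H3K27me3 levels -0.37, -0.41 and 0.22, again without overlap. The difference was 0.84 in SF1, 1.23 in SF4 and 1.09 in SF5, with H3K4me2 higher at 17, 12 and 15 of the 17 probes (limma adjusted p = 0.927). PACSIN3, a protein of endocytic membranes, had 24 probes over chr15:77424751-77435727. H3K4me2 was higher at 20 of 24 probes in SF1, 20 of 23 measured in SF4 and 20 of 24 in SF5, and the difference was 0.69, 1.07 and 1.51. MRE11A, a nuclease of double-strand break repair, had 25 probes at chr15:522196-522483, with differences of 0.61, 1.78 and 0.96 and H3K4me2 higher at 25, 25 and 15 probes.

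COX5A, a nuclear-encoded subunit of cytochrome c oxidase, had the largest mean of these genes and the largest spread. Its mark difference was 1.13 in SF1, 2.22 in SF4 and 6.16 in SF5 (mean 3.17 ± 2.64 SD, n = 3; limma adjusted p = 0.927). The H3K27me3 signal was well above background at 4 of its 4 probes in SF1, at 1 in SF4 and at 0 in SF5, so the values of SF4 and SF5 rest on signals near the floor. Without SF5 the mean was 1.676, below that of EML5 (1.684), so the rank of COX5A rests on that bull. With normexp background correction the mean was 1.88. The probe shown above read 3070 for H3K4me2 and 30 for H3K27me3 in SF5, and its own input differed between SF5's arrays, 457 against 205; over the gene's probes the input difference was 0.97 log2 units in that bull.

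The other 6 genes of this direction were SPR, PSMB10, RUNDC3A, RELA, EML5 and C11H2orf42. SPR, sepiapterin reductase of tetrahydrobiopterin synthesis, differed by 1.12, 2.05 and 0.74. PSMB10, a catalytic subunit of the immunoproteasome, differed by 0.48, 2.00 and 1.94, and RELA, the p65 subunit of NF-kappaB, by 0.54, 1.24 and 1.91 over 10 probes. RUNDC3A differed by 0.99, 1.53 and 0.70 over 14 probes, of which 8 (H3K4me2) and 7 (H3K27me3) were well above background in SF5. EML5, of a family of microtubule-associated proteins, differed by 1.24, 2.13 and 0.49 and C11H2orf42 by 0.53, 1.26 and 2.48. The bull with the largest difference was SF4 in some of these genes and SF5 in others, while SF1 was largest only at POLD3 among the 12.

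Among genes with H3K27me3 higher, WDR11, a WD-repeat protein of intracellular trafficking, had the smallest p. Its H3K4me2 levels were -0.58, -0.13 and -1.51 and its H3K27me3 levels 0.54, 1.72 and -0.16 in SF1, SF4 and SF5. SF4's H3K4me2 array lay above SF5's H3K27me3 array, so the groups overlap slightly, while within the bulls the mark difference was -1.12, -1.85 and -1.36 (mean -1.44 ± 0.37 SD, n = 3; limma adjusted p = 0.927). CCNL2, cyclin L2 of pre-mRNA splicing, was the steadiest, at -0.98, -1.12 and -1.22 over 3 probes.

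OXSR1, a kinase that acts on cation-chloride cotransporters, was the best covered of these 24 genes, with 53 probes within 976 bases at chr22:11753244-11754219. Its H3K4me2 levels were -0.79, -0.88 and -0.81 and its H3K27me3 levels 0.20, 0.32 and 1.06, so the marks did not overlap. The mark difference was -0.997 in SF1, -1.20 in SF4 and -1.87 in SF5 (limma adjusted p = 0.927). The difference was not even along the locus. At the 37 probes that start 720 bases or more from the first, H3K27me3 was higher at 37 of 37 probes in each bull, with medians of -1.44 in SF1, -1.15 in SF4 and -2.47 in SF5. At the 14 probes from 600 to under 720 bases it was higher at 14 in SF4 but at 7 in SF1 and 7 in SF5, with medians of -1.03, -0.17 and -0.24. These windows were drawn after the profile was seen. Overlapping probes share sequence, so the 53 are not independent.

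**Figure D4:**
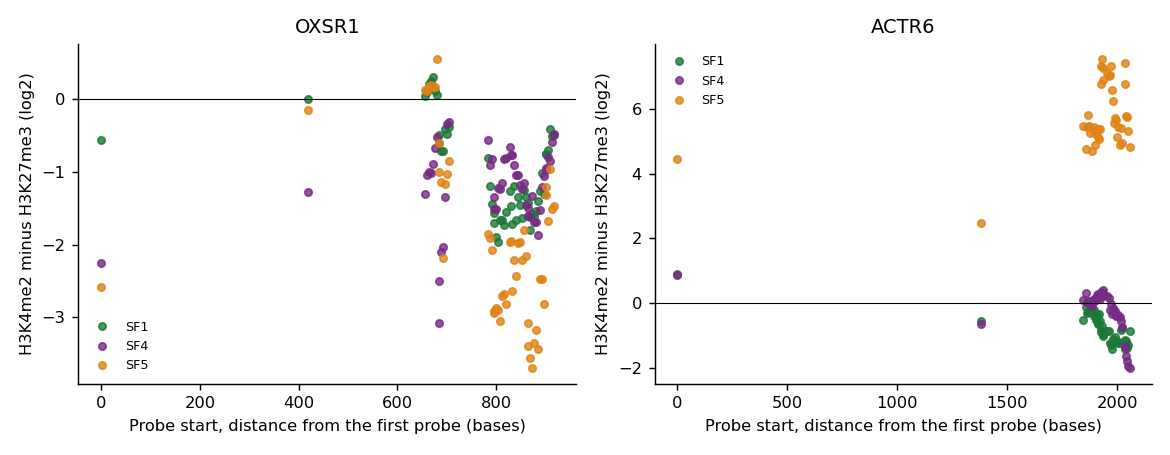
Mark difference (H3K4me2 minus H3K27me3, log2) of each probe against the distance of its start from the gene's first probe, in bases, for OXSR1 (53 probes) and ACTR6 (43 probes); colours are the 3 subfertile bulls. At OXSR1 all 3 bulls lie below 0 beyond 720 bases, and at ACTR6 SF5 lies between 2.47 and 7.52 while SF1 and SF4 lie between -2.00 and 0.90.

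The other 9 genes of this direction had mean differences between -1.58 (FAM76B) and -1.06 (ARPM1). CBX1, the heterochromatin protein HP1 beta, differed by -0.53, -2.31 and -1.71, with H3K27me3 higher at 9 of its 9 probes in every bull. UFM1, a ubiquitin-like modifier, differed by -0.75, -1.52 and -1.30 and MFSD1, a lysosomal transporter, by -0.59, -1.65 and -2.01. MFSD1 showed that a negative difference need not mean a low H3K4me2 level: in SF1 its H3K4me2 level was 1.69 and its H3K27me3 level 2.28, both above the median probe. SERPINI1, the neuronal protease inhibitor neuroserpin, was read by 3 promoter probes and differed by -0.83, -1.96 and -1.02. In SF1 its Cy5 signals alone differed by -0.20 and the input signals by 0.62, and the mean over bulls of -1.27 was -0.69 when only probes with both colours well above background on all 6 arrays were used. C21H15orf63, ZNF507, ARPM1 and CNEP1R1 differed in the same direction, with values from -2.27 to -0.54 over the bulls. In all 12 genes the difference was smallest in size in SF1. UFM1 had a ChIP signal well above background at 8 of its 12 probes on SF5's H3K4me2 array, and at all 12 elsewhere.

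**Figure D5:**
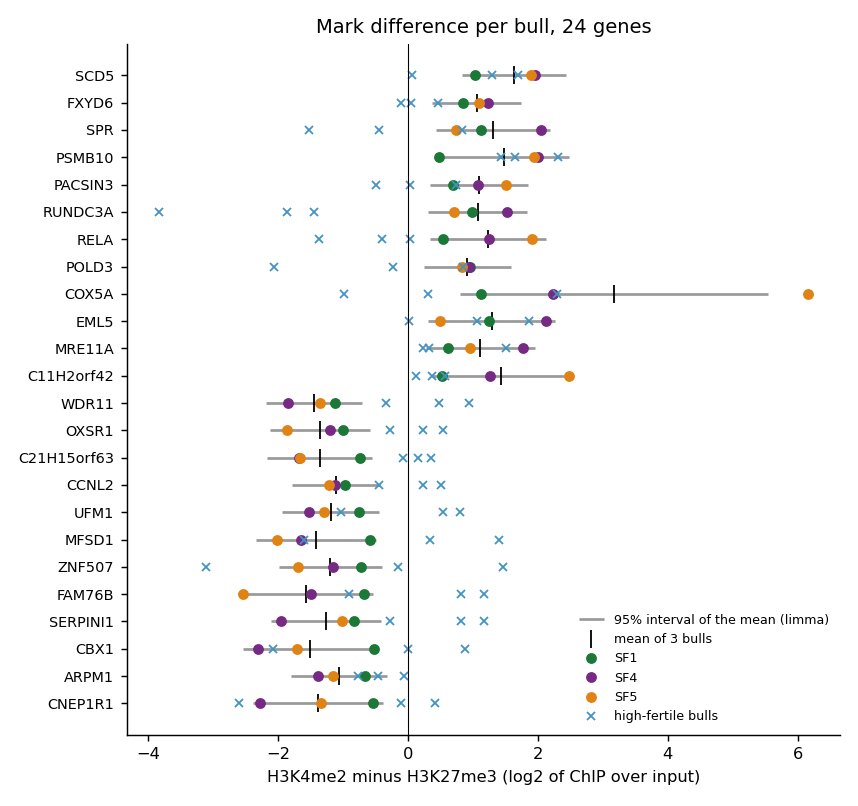
Mark difference (log2, horizontal) of the 24 genes in SF1, SF4 and SF5 (coloured points), their mean (black bar), its 95% interval in limma (grey line) and the 3 high-fertile bulls (blue crosses). The genes were picked for one sign in the subfertile bulls, so that side carries no information; the crosses lie on both sides of 0 for most genes, and COX5A in SF5, at 6.16, is the farthest point.

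The high-fertile bulls had no part in choosing these genes. Of the 12 genes with H3K4me2 higher, 5 had H3K4me2 higher in all 3 high-fertile bulls as well (SCD5, PSMB10, EML5, MRE11A and C11H2orf42), against 15.4% of all genes, and 8 had a mean in that direction, against 55.6% of all genes. PSMB10 had differences of 1.43, 2.30 and 1.65 in HF2, HF3 and HF5, next to 0.48, 2.00 and 1.94 in the subfertile bulls. Of the 12 genes with H3K27me3 higher, 1 did so in all 3 high-fertile bulls (ARPM1), against 9.8% of all genes, and 4 had a mean in that direction, against 44.4%. With 12 genes each, these counts are descriptions.

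The mark difference itself was then compared between the fertility groups, with each bull as 1 value. No gene passed (0 of 6805 in limma, lowest adjusted p 0.959), and 246 (3.61%) had an unadjusted p under 0.05. The smallest p belonged to RUNDC3A, at 0.99, 1.53 and 0.70 in the subfertile and -1.44, -1.87 and -3.83 in the high-fertile bulls (subfertile minus high-fertile 3.45 ± 0.64 SE, limma adjusted p = 0.959). EXOSC1, a subunit of the RNA exosome, had 29 probes and values of 1.34, 1.77 and 0.30 against -0.82, -0.81 and -0.74. C1QTNF1 had 0.27, 1.51 and 1.93 against -0.25, -1.67 and -2.16. In the other direction MRTO4, a factor of ribosome assembly, had -0.70, -0.78 and -1.53 against 0.35, 0.85 and 0.56, and STK3, a kinase of the Hippo pathway, -0.32, -1.14 and -1.04 against 0.51, 0.63 and 1.09. At WDR11, the remaining gene named by this rule, HF5 had -0.34, on the side of the subfertile bulls. These 6 genes were chosen by the p of this comparison, so that the groups of bulls do not overlap in them is no further support. Over all genes the groups did not overlap at 634 of 6805 (9.32%), and at 219 (3.22%) they lay on opposite sides of 0.

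Each mark was also set against the median of its array. No gene passed in limma for H3K4me2 (0 of 6805; 257 or 3.78% unadjusted; lowest adjusted p 0.975) or for H3K27me3 (0 of 6805; 350 or 5.14% unadjusted; lowest adjusted p 0.749). PIGL, an enzyme of GPI anchor synthesis, was low in both marks: -1.77, -2.46 and -1.53 for H3K4me2 and -1.62, -1.70 and -1.71 for H3K27me3 over 10 probes. SEC62, of the protein translocation channel of the endoplasmic reticulum, was high in both, at 1.63, 1.56 and 3.34 for H3K4me2 and 1.43, 1.80 and 0.80 for H3K27me3 over 12 probes. Among genes high for H3K27me3 FAM76B had the smallest p, at 1.62, 2.88 and 1.83, and had H3K4me2 levels of 0.94, 1.38 and -0.71. MIR429, a microRNA locus, was low for H3K27me3 at -1.40, -1.92 and -1.81 and had H3K4me2 levels of -0.60, -0.26 and -1.38. The other genes of smallest p were PSMB10 and FAM169A (above the median) and FAM115A and KIAA1324L (below it) for H3K4me2, and SERPINI1 and NSUN4 (above) and COX5A (below) for H3K27me3. This order is by p, and other genes had higher or lower mean levels.

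HOX genes, which pattern the body axis and are textbook targets of Polycomb, are among the loci where retained sperm nucleosomes are best known. Of 41 listed HOX genes 22 were measured, and 0 had an unadjusted p under 0.05 in limma, against 2.73% of all genes. H3K4me2 was higher in all 3 bulls at 4 of them (18.2%) and H3K27me3 at 1 (4.55%), against 14.6% and 10.7% of all genes. The median difference was 0.14 in SF1, 0.10 in SF4 and 0.17 in SF5, next to -0.01, 0.03 and 0.16 over all genes. HOXA10, over 73 probes, had H3K4me2 levels of -0.19, -0.34 and -0.32 and H3K27me3 levels of -0.18, 0.31 and 0.23. HOXA3, over 87 probes, had 0.65, 0.84 and 0.40 against 0.36, -0.14 and 0.17. HOXA5 was the most densely tiled HOXA gene, with 187 probes, and its difference was 0.37, 0.06 and -0.94, of mixed sign.

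At 3 more HOXA genes the sign of the difference was mixed over the bulls. HOXA2 differed by 0.35, 0.13 and -0.38, HOXA4 by 0.17, -0.03 and -0.15 and HOXA9 by 0.16, -0.23 and 0.35. Among HOXD genes, HOXD12 had H3K4me2 higher in each bull, by 0.32, 0.08 and 0.42, and the others were mixed: HOXD4 0.40, 0.15 and -1.15, HOXD10 0.02, -0.52 and 2.03, and HOXD11 0.58, 1.42 and -1.03. On SF5's H3K4me2 array 12 of the 22 HOXD11 probes had a ChIP signal well above background. HOXD10 in SF5 stood high in both marks, at 4.32 for H3K4me2 and 2.28 for H3K27me3, with an input difference of 1.12, while SF1 and SF4 lay between -0.48 and 0.48. HOXC12 and HOXC11, the HOX genes of smallest p, differed by 0.34, 0.24 and 2.13 and by -0.07, 0.83 and 0.89. Among the HOXA and HOXD genes the sign of the difference varied between bulls in 8 of 11, and one sign in all 3 bulls was seen at HOXA3, HOXA10 and HOXD12.

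Developmental regulators were measured in 3 further lists. The background for their unadjusted counts is 2.73% of all genes, 1.22% with H3K4me2 higher and 1.51% with H3K27me3 higher. Of 83 developmental transcription factors measured, 0 passed unadjusted, with H3K4me2 higher in all 3 bulls at 16 (19.3%) and H3K27me3 at 6 (7.23%), against 14.6% and 10.7% of all genes. CDX2, a trophectoderm and gut factor covered by 69 probes, differed by -0.40, -0.34 and -1.30. On SF5's H3K4me2 array 57 of the 69 CDX2 probes had a ChIP signal well above background. PITX1, of the hind limb, differed by -0.03, 0.80 and 1.37. Of 50 developmental signalling genes 0 passed unadjusted with H3K4me2 higher and 1 with H3K27me3 higher, WNT11, a ligand of non-canonical Wnt signalling, at -0.32, -1.03 and -2.17. Of 16 genes of pluripotency and the early embryo 1 passed unadjusted, POU5F1, the pluripotency factor OCT4, at -0.50, -0.55 and -2.29 over 2 promoter probes. In both genes the difference was largest in SF5, the bull with the widest spread over all genes.

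Genes of male germ cells were measured in 4 lists. Of 22 spermatogenesis genes 0 passed unadjusted, with H3K4me2 higher in all 3 bulls at 4 (18.2%) and H3K27me3 at 0, against 14.6% and 10.7% of all genes. At the unadjusted threshold 2.73% of all genes passed, the background for the 4 lists. CREM, the transcription factor that drives spermatid genes, differed by 0.00, 0.40 and 1.67 over 28 probes, and KIT, the receptor of spermatogonia, by -0.04, 0.87 and 1.64. Of 5 protamine and spermatid nuclear protein genes 0 passed unadjusted. TNP1, transition protein 1, had H3K4me2 levels of 0.13, 0.37 and 0.09 and H3K27me3 levels of 0.25, -0.23 and -0.94 over 2 promoter probes, so the marks overlapped. PRM1, protamine 1, had a single probe, with differences of 0.09, -1.20 and -0.70, and PRM2 had none. Of 23 flagellum genes 1 passed unadjusted, CCDC39, a ruler protein of the axoneme, at 0.04, -2.41 and -2.07. Of 21 genes of the acrosome and fertilization 0 did. PLCZ1, the sperm factor that activates the egg, differed by 1.61, 0.21 and 0.37 over 2 promoter probes. In SF5 its Cy5 signals alone differed by 1.36 and the input signals by 0.95, and in SF1 1 of the 2 probes was well above background for H3K27me3. SPAG4 differed by 0.17, -1.63 and -1.38.

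Housekeeping genes, whose CpG island promoters carry H3K4 methylation in most cells, were measured in 3 lists. Of 52 ribosomal protein genes 2 passed unadjusted with H3K4me2 higher and 0 with H3K27me3 higher, against 1.22% and 1.51% of all genes. RPL23A differed by 0.93, 2.02 and 4.67 over 2 promoter probes and RPL11 by 0.89, 0.79 and 0.91 over 2 probes. Ribosomal protein genes have many processed copies, so these probes may read more than 1 locus. Of 52 respiratory chain genes 3 passed unadjusted with H3K4me2 higher and 0 with H3K27me3 higher. They include COX5A and ATP5G2, a subunit of ATP synthase, at 0.49, 0.80 and 1.66. The list's median difference was -0.02 in SF1, 0.15 in SF4 and 0.37 in SF5, next to -0.01, 0.03 and 0.16 over all genes. Of 74 other housekeeping genes 0 passed unadjusted, and EIF3D differed by -0.42, -0.50 and -1.93 over 38 probes and COPA by 0.03, 0.60 and 1.68 over 34. On SF5's H3K4me2 array 22 of the 38 EIF3D probes had a ChIP signal well above background.

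Of 11 genes of the H3K4 methylation machinery 1 passed unadjusted, ASH2L, a core subunit of the methyltransferase complexes, at 0.81, 0.44 and 1.94. SMYD1 differed by -0.02, -0.96 and -2.40. Of 13 Polycomb and H3K27 demethylase genes 1 passed unadjusted, where 2.73% of all genes passed. It was PCGF1, a subunit of a Polycomb repressive complex, at -0.37, -1.59 and -0.79 over 31 probes. On SF5's H3K4me2 array 24 of the 31 PCGF1 probes had a ChIP signal well above background. H3K4me2 was higher in all 3 bulls at 4 of the 13 (30.8%) and H3K27me3 at 1 (7.69%), against 14.6% and 10.7% of all genes. CBX7, another Polycomb protein, went the other way at 0.49, 0.48 and 0.38. Of 21 imprinted genes 0 passed unadjusted, and IMPACT differed by -0.09, -1.34 and -0.77 and UBE3A by -0.78, 0.01 and -2.59. Of 39 neuronal genes 1 passed unadjusted with H3K4me2 higher and 2 with H3K27me3 higher. H3K27me3 was higher in all 3 bulls at 9 of the 39 (23.1%), against 10.7% of all genes, and H3K4me2 at 4 (10.3%), against 14.6%. ROBO1, an axon guidance receptor, differed by 0.90, 1.03 and 0.45 and DRD1, a dopamine receptor, by -0.44, -0.88 and -1.01. The neuronal median was -0.02 in SF1, -0.04 in SF4 and -0.13 in SF5, next to -0.01, 0.03 and 0.16 over all genes. The lists were chosen with earlier results of these data known, and none of these shares is a test.

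The assay reads DNA, so it cannot show which cells were present, and marker genes are given only as loci. Of 10 sperm markers 6 had at least 1 probe, and the medians of these 6 over the arrays were 0.03 to 1.06 for H3K4me2 and -0.17 to 0.23 for H3K27me3. ODF1, an outer dense fibre protein of the sperm tail, had 8 probes and differences of -0.23, 0.26 and 2.67. Of 6 leukocyte markers 4 were on the array, with medians of 0.10 to 0.55 and -0.13 to 0.34. Of 5 epithelial markers 4 were, with medians of -0.20 to 0.52 and -0.48 to 0.60. Of 6 markers of somatic testis cells 1 was, STAR, at -0.97 to 0.53 and 0.78 to 1.56. None of the wider lists of 9 leukocyte, 16 epithelial and 13 somatic testis genes measured held a gene with an unadjusted p under 0.05. Of all genes 2.73% had such a p in limma. CSF1R and CD14 differed by 0.59, 0.06 and 2.33 and by -0.34, 0.02 and -0.69, CDH1 and OVOL2 by 0.39, 0.35 and 1.80 and by 0.69, 0.19 and 0.59, and MYH11 and GATA4 by -0.15, 1.45 and 1.69 and by 0.08, -0.11 and 0.77.

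By kind of region, the mean mark difference over CpG island probes was 0.01 in SF1, 0.05 in SF4 and 0.23 in SF5 (mean 0.10 ± 0.12 SD, n = 3; exact two-sided sign-flip permutation test, p = 0.25, the smallest 3 bulls allow). Over promoter probes it was -0.01, 0.03 and -0.08 (exact permutation p = 0.75), and over coding probes 0.01, 0.05 and 0.17 (exact permutation p = 0.25). CpG island probes lay above promoter probes by 0.03 in SF1, 0.03 in SF4 and 0.31 in SF5, where SF5's H3K4me2 array also rose with the G and C content of the probes. After loess within arrays the promoter values were -0.05, -0.06 and -0.08 (mean -0.064 ± 0.014 SD, n = 3; exact permutation p = 0.25), of one sign in the 3 bulls and over 2 times the size without loess. The gap to CpG islands was then 0.05, 0.06 and 0.20.

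The largest differences of single bulls were looked up after their values were seen, among 2937 genes with at least 10 probes. In SF5, TM9SF4 differed by 6.46 over 11 probes, next to 0.83 in SF1 and 1.48 in SF4, and ACTR6, an actin-related protein of a chromatin remodelling complex, by 5.73 over 43 probes, next to -0.75 and -0.22. At ACTR6 H3K4me2 was higher at 43 of 43 probes in SF5 over 2118 bases, at 1 of 43 in SF1 and at 23 of 43 in SF4. Apart from probes at 0 and 1380 bases, all start between 1847 and 2058 bases from the first. Most thus overlap and are not independent. The ACTR6 probe shown above read 13800 for H3K4me2 and 328 for H3K27me3 in SF5, over inputs of 673 and 579, while SF4 read 1240 and 1220. In the other direction SF5 had KSR2 at -3.41, CWC15 at -3.34 and SNX20 at -3.18, the last at 30 of 30 probes, where SF1 and SF4 had 0.15 and -0.25. After loess within arrays the values of SF5 were 4.41 at TM9SF4, 3.92 at ACTR6, -2.25 at KSR2, -2.18 at CWC15 and -1.93 at SNX20. In SF4 PDIK1L differed by 2.98 at 14 of 14 probes, with -1.30 and -0.79 in SF1 and SF5, and GPBP1 by -2.97, with -0.27 and -2.50. The fainter signal of these loci was in part not well above background. H3K27me3 of PDIK1L in SF4 was well above it at 9 of 14 probes. H3K4me2 of GPBP1 was so at 9 of 15 in SF4 and 8 of 15 in SF5, and H3K4me2 of SNX20 at 24 of 30 in SF5.

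In SF1, the bull with the smallest differences, CHST2 differed by 1.64 at 15 of 15 probes, with 1.14 in SF4 and -0.43 in SF5. FSHR, the receptor of follicle-stimulating hormone on Sertoli cells, differed by -1.69 at 10 of 10 probes in SF1, by -0.31 in SF4 and by 1.39 in SF5. BTRC, a subunit of a ubiquitin ligase, differed by 1.26 in SF1 and 2.08 in SF4 and by -2.86 in SF5, where H3K4me2 was lower at 19 of 19 probes. GATC, of mitochondrial aminoacyl-tRNA formation, differed by -1.33, -0.83 and 4.46. CHST2 in SF5 was mixed along the locus, with H3K4me2 higher at 8 of 15 probes.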

How the data were processed

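The authors used Agilent Feature Extraction 10.7 (submitters' processing notes; 10.7.3.1 per the file headers) to obtain an intensity per spot and dye, background-subtracted and dye-normalized, and quality flags of 0 and 1. The authors' value table is on a log2 scale, ChIP relative to input, as its correlation with the scanner ratios shows (0.74 to 0.98). With the ratios after loess within arrays it correlated at 0.984 to 0.991, so as alternatives the table and loess are nearly alike. Its normalization is not given in the sources used here, and its column medians were -0.13 to 0.04. Here log2(processed Cy5 / processed Cy3) was taken per probe. Control spots were left out, 46 to 324 outlier spots per array were set missing, and 177372 of 177440 probes were kept (Cy3 flagged above background in 6 or more of the 12 arrays). Arrays were centred on their median, and genes averaged over at least 2 probes. The paired model used limma 3.58.1 (R 4.3.3, two-sided, Benjamini-Hochberg) and had the bull as a block. The labels name the same bull's input on both arrays. Centred on the 3 bulls' mean, input levels correlated at 0.969 to 0.983 within a bull and at -0.625 to -0.226 between bulls. The ratios correlated at 0.317 to 0.646 within a bull. Centring on a mean of 3 by itself pulls the values between bulls below 0, so their sign carries no information. Both arrays of a bull lie on 1 slide, so the block holds the slide too. The fit was also run on simulated differences, drawn with the same spread for all genes of a bull and no effect of base composition. No result here rests on that run. Neighbouring probes were compared up to 40 places apart. Symbols are those of the array design, and 5788 genes matched the buffalo RefSeq table by name.

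Named genes had a symbol, 1 chromosome, at least 3 probes and one sign in all 3 bulls in the ratio and in Cy5: the 12 of smallest p in each direction. The others were the 2 members of smallest p in each list, TNP1, PRM1, PRM2, all HOXA and HOXD genes, 3 above and 3 below the median for each mark, and 3 per direction of the fertility difference, both by smallest p. A gene named by these rules is not reported here. The comparison, its members and the lists were chosen with earlier results of these data known. Alternatives covered the block, loess, normexp (offset 50), the deposited log2 table, base composition, all 12 arrays, the probe filters, the gene summary, quantile normalization of single channels and each bull left out; array weights, and the Cy5 and loess values of the single-bull differences, were added after seeing the data.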

Additional observations from a re-analysis of the deposited data

Results flagged for a closer look

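In 11 of the genes described, all 3 subfertile bulls lay on one side of 0 in the mark difference and all 3 high-fertile bulls on the other. None passed limma's test of the difference between the groups (adjusted p 0.959 for each). Over all 6805 genes 219 (3.22%) were split this way, and the 11 were chosen by the p of this comparison or of the one between the marks. An unadjusted p under 0.05 was found for 3.61% of all genes. Given as subfertile minus high-fertile mean difference in log2 units, H3K4me2 relative to H3K27me3 was higher in the subfertile bulls at RUNDC3A (3.45), C1QTNF1 (2.60), EXOSC1 (1.93), ATP5G2 (1.54) and HOXC12 (1.40). It was lower at WNT11 (-1.89), SMYD1 (-1.62), MRTO4 (-1.59), STK3 (-1.58), DRD1 (-0.98) and CDX2 (-0.87). RUNDC3A, EXOSC1, C1QTNF1, MRTO4 and STK3 were named for the smallest p of this comparison in each direction, and the others for their list or their values in the subfertile bulls. At SMYD1 the value of SF1 was -0.02, next to 0.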

How the results depend on the processing

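No gene or probe passed an adjusted p of 0.05 in any fit of any comparison. Counts at an unadjusted p under 0.05 moved. For the mark difference (186 genes) they were 59 without the replicate block, 293 with loess, 290 with the deposited table, 299 with all 12 arrays, 113 of 4358 genes with at least 5 probes, 374 with array weights, and 219 to 275 with a bull left out. For Cy5 alone (181) they were 297 with quantile normalization, 307 with array weights and 227 to 270 with a bull left out; for the input channel (260) 0 without the block. For single probes (4719) they were 1758 without the block, 7446 with loess, 20863 with array weights and 4094 to 7626 with a bull left out (7626 without SF1). The fertility difference (246) gave 205 to 378 (378 without SF1). The 24 genes of smallest p were chosen for one sign in every bull, which largely fixes their direction; their adjusted p was 0.85 to 1.00 over 350 values. Loess moved the median difference of all genes from 0.07 to 0.00 and the split of unadjusted calls from 83 against 103 to 129 against 164. The GC correction gave 96 against 93, and leaving out SF4 162 against 113. Genes of one sign in all 3 bulls, the background given for the lists, moved with loess from 991 against 727 to 849 against 856. With loess the mean of the list medians was 0.10 for HOX (0.14) and -0.034 for other housekeeping genes (0.017). Some HOX genes changed sign. HOXA2 (0.03) was -0.000986 with the GC correction and -0.20 with the median of probes. HOXA4 (-0.003) was 0.15 with loess, 0.13 in the deposited table and 0.11 with array weights. HOXA9 (0.09) was -0.065 with the median of probes. HOXA5 and HOXD4 (-0.17 and -0.20) were 0.23 and 0.25 with array weights. HOXD10, at 0.51 not near 0, was -0.037 in the deposited table. HOXD11 (0.33) changed sign only with SF4 left out (-0.22). With a bull left out the values ranged from -0.012 to 0.43 at GATA4, -0.13 to 0.24 at HOXA2, -0.088 to 0.071 at HOXA4, -0.44 to 0.21 at HOXA5, -0.038 to 0.25 at HOXA9, -0.25 to 1.03 at HOXD10, -0.22 to 1.002 at HOXD11 and -0.50 to 0.27 at HOXD4. Of the 36 alternative values of single-bull differences 27 stayed within the SD of the gene's probes. Half-widths of 0.81 log2 units in the median gene bound what 3 bulls can resolve.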
